A study of Mus musculus with 24 samples.

Results

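The cholesterol synthesis group comprised 8 genes: Hmgcs1, Idi1, Fdps, Fdft1, Sqle, Lss, Insig1 and Srebf2. They were taken by symbol from the deposited expression matrix, and all 8 were among its 14159 genes with a symbol. None of the 8 encodes an uptake receptor, so genes of sterol uptake were read from a separate list. RNA was sequenced from whole quadriceps muscle of female mice, in 24 libraries that formed 8 groups of 3. The study compared C57BL/6J (B6) mice, a common inbred strain, with MRL/MpJ (MRL) mice, an inbred strain known for wound healing with little scar and for a tendency to autoimmunity. In each strain, 1 group was left uninjured, and the other three received a volumetric muscle loss injury, in which a piece of the quadriceps was cut out, in mice 6 to 8 weeks old. The gap was filled with saline (the control injury), with decellularized extracellular matrix from porcine small intestine (ECM, a pro-regenerative material), or with ultra-high-molecular-weight polyethylene powder (PE, a pro-fibrotic material), and the muscle was taken at day 21. The labels give no day for the uninjured libraries. In comparisons with them, time of collection cannot be told apart from the injury or implant. No group carried a transgene or a deletion. The labels do not tie libraries to named animals, so the p-values measure the spread between these 24 samples.

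Cells build cholesterol from acetyl-CoA through mevalonate, isoprenoid and squalene intermediates, in a chain of enzymes that act in the cytosol, endoplasmic reticulum and peroxisome. The transcription factor SREBP-2, encoded by Srebf2, is held in the endoplasmic reticulum by INSIG proteins while membrane sterol is plentiful, and is released to switch on the synthesis enzymes, genes of sterol uptake and Insig1 itself when sterol runs low. Fat cells hold much of the body's free cholesterol and express many of these enzymes, while macrophages that clear dead cells take in sterol, store it as ester and export it. A bulk library of whole muscle mixes muscle fibres with such cells, and fewer cells of a type cannot be told apart from less RNA per cell.

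The sequences just before the transcript start are shown for 4 members: Sqle and Srebf2, which differed among the groups, and Hmgcs1 and Insig1, whose windows held the rarer motifs. Each is the 250 bases before the start, written 5′ to 3′ on the strand of the gene, from the GRCm39 genome with GENCODE transcript starts. Capitals mark the letters TCACNCCAC, which resemble a sterol regulatory element, the CCAAT motif on either strand (ATTGG on the other), and the E-box CACGTG.
Hmgcs1, chr13:120151732-120151981, plus strand: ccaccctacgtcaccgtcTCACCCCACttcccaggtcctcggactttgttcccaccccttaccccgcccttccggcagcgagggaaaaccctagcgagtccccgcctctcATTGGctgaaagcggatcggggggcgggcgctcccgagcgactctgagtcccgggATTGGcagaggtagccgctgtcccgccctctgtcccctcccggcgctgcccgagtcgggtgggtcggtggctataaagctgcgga
Sqle, chr15:59186632-59186881, plus strand: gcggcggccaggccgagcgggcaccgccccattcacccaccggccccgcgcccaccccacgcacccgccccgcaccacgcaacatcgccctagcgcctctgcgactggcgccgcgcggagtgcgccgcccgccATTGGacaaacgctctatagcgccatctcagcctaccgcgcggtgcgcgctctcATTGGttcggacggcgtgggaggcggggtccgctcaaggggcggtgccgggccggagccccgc
Insig1, chr5:28276077-28276326, plus strand: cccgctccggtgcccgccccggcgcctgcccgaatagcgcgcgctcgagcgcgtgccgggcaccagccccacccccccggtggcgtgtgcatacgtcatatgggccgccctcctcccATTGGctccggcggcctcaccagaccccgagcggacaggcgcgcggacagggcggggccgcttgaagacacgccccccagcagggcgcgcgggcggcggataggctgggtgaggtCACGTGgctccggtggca
Srebf2, chr15:82031132-82031381, plus strand: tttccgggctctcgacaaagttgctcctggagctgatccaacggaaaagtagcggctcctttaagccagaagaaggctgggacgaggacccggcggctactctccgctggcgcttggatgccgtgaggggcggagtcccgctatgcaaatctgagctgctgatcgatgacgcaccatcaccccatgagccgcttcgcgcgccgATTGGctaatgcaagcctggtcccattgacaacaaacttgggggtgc

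Motifs were searched on both strands in windows of 250 bases before to 50 bases from the start, in the 8 members and in 21757 promoters. CCAAT was found in 8 of 8 member windows, against 39.9% of all promoters, and in 11 of the 15 other sterol synthesis genes listed. TCACNCCAC was found in Hmgcs1 alone among the members, against 1.34% of promoters. The classical sterol regulatory element, a longer motif whose letters contain a TCACNCCAC match, was found in 0 of 8 members and in 0.0781% of promoters. CACGTG was found in Insig1 alone among the members, against 7.82% of promoters, and the GC box GGGCGG in 6 of 8 members, against 42.5%. These matches describe letters and not bound sites.

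Values below are log2 CPM (counts per unit of library size, with library sizes adjusted by the trimmed mean of M-values), on which a difference of 1 is a doubling, and errors are SD over 3 libraries unless given as SE. Replicate libraries correlated across genes at r of 0.904 or more in 7 groups. In PE-treated MRL muscle the lowest r was 0.812, and replicate 2 of that group stood apart from the other two. Summed macrophage markers (6 of 7 listed were measured) were at 4529 CPM in that library against 216 and 220.5 CPM, and summed adipocyte markers (9 of 9) at 569.9 CPM against 6503 and 4354 CPM. Muscle fibre markers (7 of 7) summed to 25410 to 162000 CPM over the 24 libraries.

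Of the 8 members, 2 differed among the 8 groups (limma F test, Benjamini-Hochberg adjusted over 14159 genes), Sqle (adjusted p = 0.0279) and Srebf2 (adjusted p = 0.0319). In all, 26% of genes passed that test. At an unadjusted p under 0.05 Insig1 joined them, against 46.7% of all genes. By group mean both genes were highest with PE, Srebf2 in B6 (6.07 ± 0.16 log2 CPM) and Sqle in MRL muscle (4.26 ± 0.38 log2 CPM). The number of members past the F test rested on single libraries: it was 0 without B6 PE replicate 2, and 1 without B6 uninjured replicate 1 or 3, B6 PE replicate 1 or 3, MRL uninjured replicate 3 or MRL PE replicate 1, and 3 without B6 uninjured replicate 2 or B6 ECM replicate 3.

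**Figure D1:**
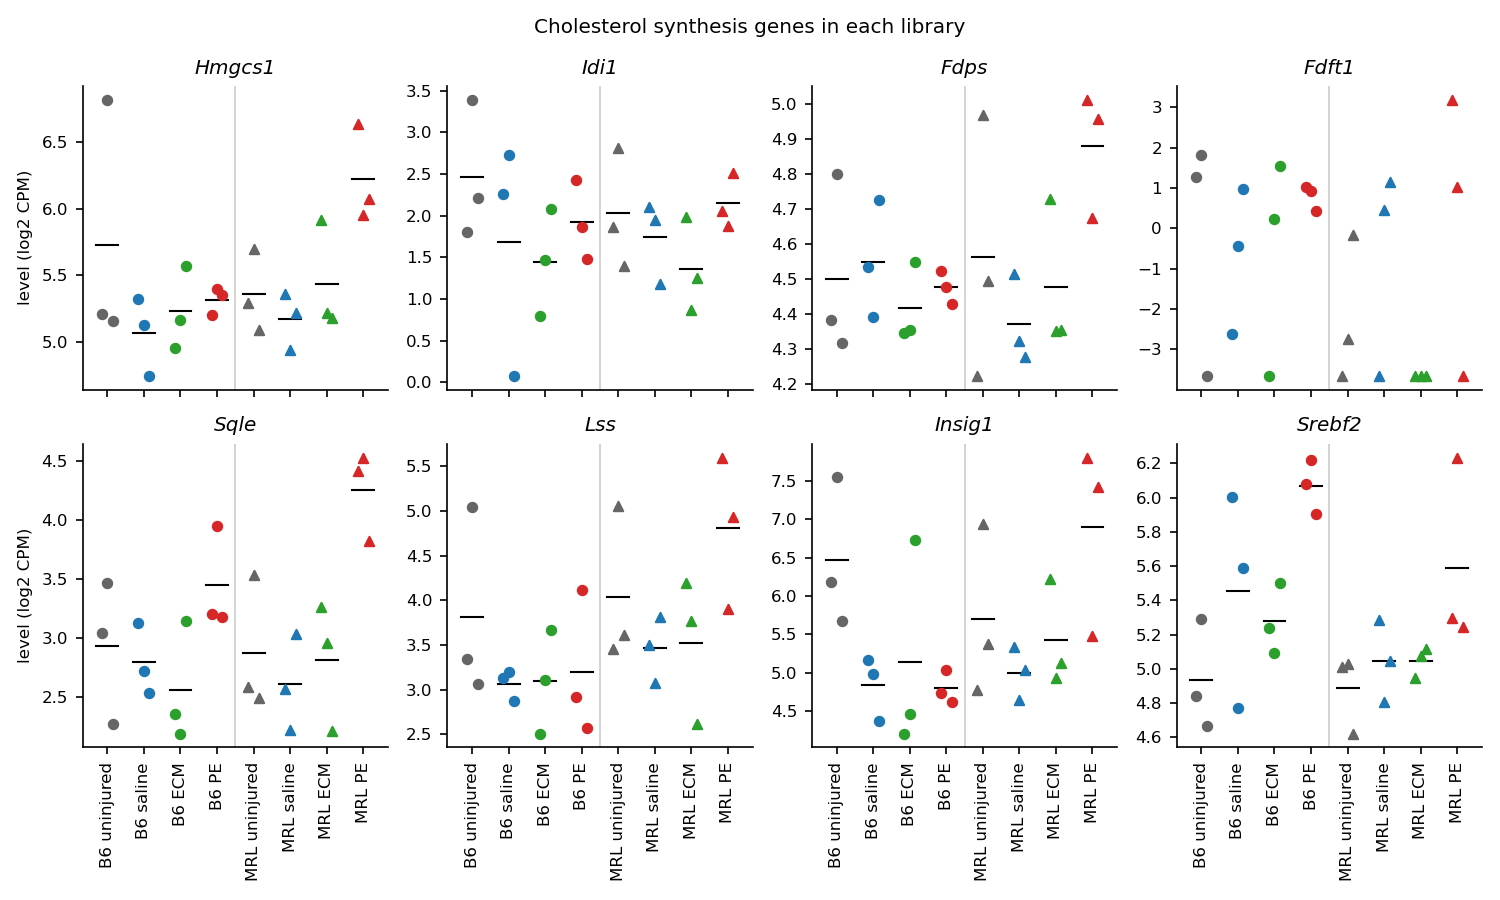
Log2 CPM (y axis) of the 8 members in each of the 24 libraries, by strain and treatment (x axis), with points for libraries and black lines for group means. By group mean, Srebf2 is highest in PE-treated B6 muscle (libraries at 5.90 to 6.22 log2 CPM, with MRL PE replicate 2 at 6.23) and Sqle in PE-treated MRL muscle (3.83 to 4.53 log2 CPM), and Fdft1, drawn without means, is at the lowest value of the matrix in several libraries.

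Srebf2 (chr15:82031382-82093201, plus strand), the gene of SREBP-2, was at 4.84, 5.29 and 4.67 log2 CPM in uninjured B6 muscle and at 6.08, 6.22 and 5.90 log2 CPM in PE-treated B6 muscle. The groups did not overlap, and the difference was 1.13 (SE 0.28, adjusted p = 0.0101, 2.19-fold). It was no longer called without B6 PE replicate 2 (1.06, adjusted p = 0.0631), and it was called under 13 of 14 alternatives, with adjusted p from 1.12e-07 to 0.0631. Saline-treated B6 muscle was in between, at 6.01, 4.77 and 5.59 log2 CPM, with 1 library within the PE range. ECM-treated B6 muscle was at 5.24, 5.09 and 5.50 log2 CPM, below all 3 PE libraries (adjusted p = 0.137). In MRL muscle, Srebf2 was at 5.01, 5.03 and 4.62 log2 CPM uninjured, 5.29, 4.81 and 5.05 with saline, and 4.95, 5.07 and 5.11 with ECM. With PE it was at 5.29, 6.23 and 5.25 log2 CPM, where replicate 2 alone reached the level of PE-treated B6 muscle. The PE to uninjured difference in MRL muscle, 0.70 (SE 0.28), did not pass (adjusted p = 0.0823).

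Insig1 (chr5:28276315-28283668, plus strand), which encodes the protein that holds the SREBP complex in the endoplasmic reticulum, spread more widely between replicates than any other member except Fdft1 (pooled SD within groups 0.90, against a median of 0.40 over all genes). In B6 muscle it was at 6.18, 7.55 and 5.67 log2 CPM uninjured, 5.17, 4.98 and 4.37 with saline, and 4.73, 5.04 and 4.63 with PE. Every saline and PE library was below every uninjured one, by 1.62 (adjusted p = 0.357) and by 1.67 (SE 0.68, adjusted p = 0.0745) on the log2 scale, and neither passed. ECM-treated B6 muscle was at 4.21, 4.47 and 6.73 log2 CPM, with replicate 3 within the uninjured range. In MRL muscle, Insig1 was at 4.78, 6.94 and 5.38 log2 CPM uninjured, 5.33, 4.65 and 5.03 with saline, and 6.22, 4.94 and 5.13 with ECM. With PE, MRL libraries were at 7.80, 5.48 and 7.41 log2 CPM. Here 2 of the 3 were above every other MRL library, while replicate 2 was below MRL uninjured replicate 2 and MRL ECM replicate 1. All 3 were above the PE-treated B6 libraries, by 2.10 on average (SE 0.68, adjusted p = 0.0952), which did not pass.

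Hmgcs1 (chr13:120151915-120170470, plus strand), the cytosolic enzyme that makes HMG-CoA at the head of the pathway, was at 6.64, 5.95 and 6.07 log2 CPM in PE-treated MRL muscle. It was at 5.36, 4.94 and 5.21 log2 CPM in saline-treated MRL muscle, and the difference of 1.05 (SE 0.34) did not pass (adjusted p = 0.118), although the groups did not overlap. The other MRL groups were at 5.29, 5.70 and 5.09 log2 CPM uninjured and 5.91, 5.22 and 5.18 with ECM, also below the PE libraries. In B6 muscle it was at 5.21, 6.82 and 5.16 log2 CPM uninjured, 5.32, 5.12 and 4.74 with saline, 4.95, 5.16 and 5.57 with ECM, and 5.20, 5.39 and 5.35 with PE. Uninjured replicate 2 was the highest of all 24 libraries, and the remaining B6 libraries lay within 1 log2 unit of each other.

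Idi1 (chr13:8935537-8942487, plus strand), which isomerizes isopentenyl diphosphate, and Fdps (chr3:89000888-89019213, minus strand), which makes farnesyl diphosphate, passed no test. Group means of Idi1 ran from 1.37 ± 0.57 log2 CPM in ECM-treated MRL muscle to 2.47 ± 0.82 in uninjured B6 muscle. Its groups explained 23.9% of its variance, the smallest share among the members. Fdps was the steadiest, from 4.22 to 5.01 log2 CPM over the 24 libraries with a pooled SD of 0.21. Its highest group mean was in PE-treated MRL muscle, 4.88 ± 0.18 log2 CPM, against 4.48 ± 0.05 in PE-treated B6 muscle (adjusted p = 0.228).

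Fdft1 (chr14:63382189-63417027, minus strand), which joins farnesyl diphosphate units into squalene, was near the floor of the matrix. The lowest value, -3.65 log2 CPM, stands for a count of 0, and 10 of 24 libraries were at or under the level of 3 counts (-2.33 log2 CPM). All 3 ECM-treated MRL libraries were at -3.65 log2 CPM, which to 2 decimals is that lowest value and stands for less than 1 count. The PE-treated MRL libraries were at 3.18, 1.02 and -3.65 log2 CPM, from the highest Fdft1 value measured to the lowest. B6 libraries were at 1.27, 1.82 and -3.65 uninjured, -2.63, -0.43 and 0.97 with saline, -3.65, 0.24 and 1.54 with ECM, and 1.03, 0.93 and 0.42 log2 CPM with PE. The other MRL libraries were at -3.65, -2.74 and -0.16 uninjured and -3.65, 0.45 and 1.15 log2 CPM with saline. Fdft1 has 1 near copy in the annotation, Gm6781, that the matrix did not hold. A cDNA counter can split reads between such copies, and transcripts were assigned to genes through an earlier Ensembl release than the reference they were counted on, so these levels are uncertain. The part of either was not tested.

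Sqle (chr15:59186869-59203043, plus strand), which adds oxygen to squalene in a rate-limiting step, was at 4.42, 4.53 and 3.83 log2 CPM in PE-treated MRL muscle. These were above all 9 other MRL libraries, at 2.58, 3.54 and 2.49 log2 CPM uninjured, 2.57, 2.22 and 3.03 with saline, and 3.26, 2.96 and 2.21 with ECM. Sqle rose by 1.39 from uninjured to PE-treated MRL muscle (SE 0.38, adjusted p = 0.0448, 2.62-fold). It was no longer called without MRL uninjured replicate 1 (adjusted p = 0.111), MRL uninjured replicate 3 (0.188) or MRL PE replicate 2 (0.191), and passed under 7 of 14 alternatives, with adjusted p from 0.0199 to 0.24. Against saline the difference was larger, 1.65 (SE 0.38), and did not pass (adjusted p = 0.0901). Against ECM it was 1.45 (SE 0.38), with PE higher and without overlap (adjusted p = 0.0561). In B6 muscle Sqle was at 3.05, 3.47 and 2.28 log2 CPM uninjured, 3.13, 2.72 and 2.54 with saline, 2.36, 2.19 and 3.14 with ECM, and 3.21, 3.95 and 3.18 with PE. All PE-treated B6 libraries were above the saline and ECM libraries, by 0.65 over saline (SE 0.38, adjusted p = 0.285), and they overlapped the uninjured ones. Sqle matched 48 annotated genes at the threshold for near copies, none of them in the matrix, and the other members have 0 to 7. These matches ran from 50% of the shorter transcript (Ube2d-ps) to 100% (Gm47551), so not all are full copies. Unlike Fdft1, Sqle was at or under 3 counts in 0 of 24 libraries. Whether its reads were split with any of these genes was not tested.

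Lss (chr10:76367298-76392976, plus strand), which closes the ring of lanosterol, the first sterol of the pathway, was at 5.60, 3.90 and 4.93 log2 CPM in PE-treated MRL muscle. All 3 were above the saline libraries at 3.50, 3.07 and 3.82 log2 CPM, by 1.35 (SE 0.57, adjusted p = 0.174), which did not pass. They overlapped the uninjured MRL libraries at 3.45, 5.06 and 3.61 log2 CPM and the ECM libraries at 4.19, 3.77 and 2.62 log2 CPM. In B6 muscle Lss was at 3.34, 5.04 and 3.06 log2 CPM uninjured, 3.13, 3.19 and 2.87 with saline, 2.51, 3.11 and 3.66 with ECM, and 2.92, 4.12 and 2.57 with PE. The 4 B6 groups overlapped each other. Replicate 2 was the highest uninjured library in both strains for Lss and for every other member except Fdft1.

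Among comparisons of groups, those with PE held all the calls among the members. They share control libraries, so each is given on its own. Between PE and uninjured B6 muscle, 1 of 8 members was called (Srebf2), against 24.8% of all genes, and 2 of 8 had groups that did not overlap (Srebf2 higher, Insig1 lower), against 51.1%. Between PE and uninjured MRL muscle, 1 of 8 was called (Sqle), against 9.73% of all genes. All 8 differences were above 0 there, against 54.3% of genes, with a median of 0.81 over the members and 0.07 over all genes, and 3 of 8 (Sqle, Hmgcs1 and Srebf2) did not overlap, against 18.9%. The number called was 0 without MRL uninjured replicate 1 or 3 or MRL PE replicate 2, and 2 without MRL PE replicate 3 (Sqle, adjusted p = 0.0199, and Srebf2, adjusted p = 0.0439).

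Between PE and saline in MRL muscle, 0 of 8 members were called by limma, as were 0% of all genes. At an unadjusted p under 0.05, 5 of 8 were higher with PE (Hmgcs1, Sqle, Fdps, Lss and Insig1), against 12.8% of genes, and the same 5 had groups that did not overlap, against 10.8%. All 8 differences were above 0, against 54.3%, with a median of 0.96 over the members and 1.05 without Fdft1. Sqle was called there without MRL saline replicate 1 (1.63, adjusted p = 0.0421) or MRL PE replicate 3 (1.87, adjusted p = 0.0486), with adjusted p from 0.00756 to 0.403 over its alternatives. Between PE and saline in B6 muscle, 0 of 8 members were called, against 5.97% of genes, and 1 (Srebf2, 0.61, adjusted p = 0.173) had an unadjusted p under 0.05, against 25.2%. Between ECM and PE, 0 of 8 were called in MRL muscle, as were 0% of all genes. All 8 were lower with ECM, against 55.1% of genes, and 6 of 8 had an unadjusted p under 0.05, against 15.6%. Without MRL PE replicate 3, 2 members were called there, Sqle (-1.66, adjusted p = 0.0281) and Fdft1, whose ECM libraries were all at -3.65 log2 CPM. In B6 muscle 0 of 8 were called between ECM and PE, against 0.226% of genes, and 2 (Sqle and Srebf2, both lower with ECM) had an unadjusted p under 0.05, against 20.6%.

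With the strains averaged, a comparison added after the data had been seen, 2 of 8 members were called, both higher with PE than with saline. In either direction, 24.2% of all genes were called there. Sqle rose by 1.15 (SE 0.27, adjusted p = 0.00923, 2.22-fold) and Srebf2 by 0.58 (SE 0.19, adjusted p = 0.0384, 1.49-fold). At an unadjusted p under 0.05 Hmgcs1 joined them, against 38.9%, and all 8 differences were above 0, against 53.5%. The Sqle call held under 20 of 20 alternatives and the Srebf2 call under 12 of 20, with adjusted p from 0.0178 to 0.136. Srebf2 was not called without B6 saline replicate 2 (0.108), B6 PE replicate 1 (0.0607) or 2 (0.104), MRL saline replicate 2 (0.0969) or 3 (0.073) or MRL PE replicate 2 (0.12). The response to PE over saline was not shown to differ between strains, with 0 of 8 members and 0% of genes called for that difference, and 1 member (Fdps) at an unadjusted p under 0.05, against 4.34%.

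**Figure D2:**
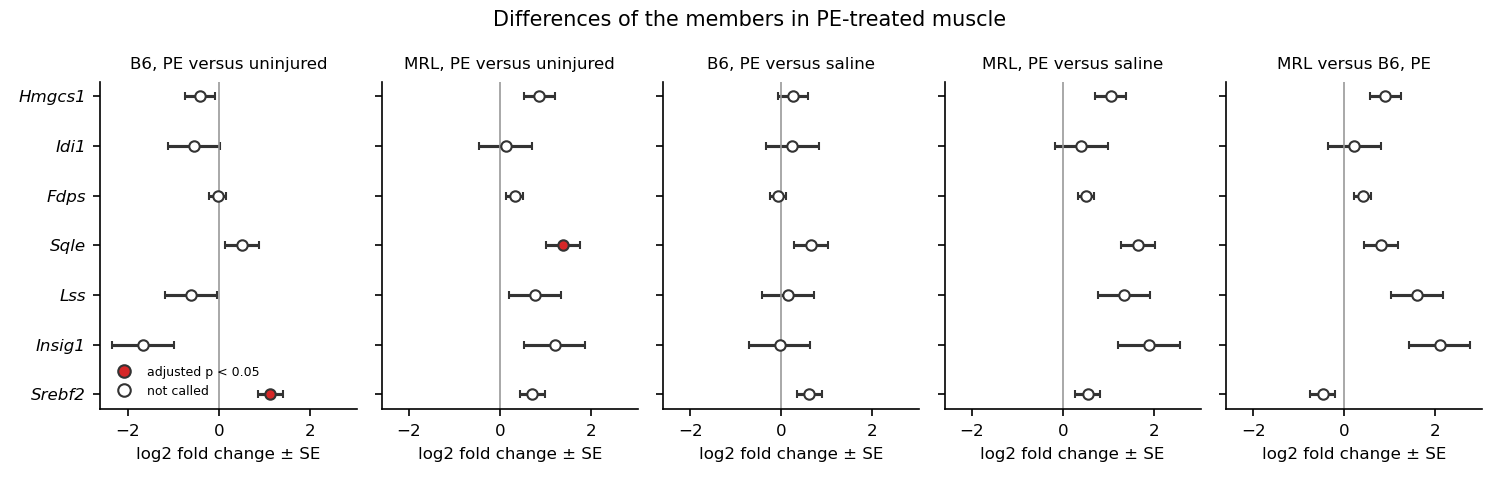
Log2 fold changes with SE (x axis) of 7 members in 5 comparisons with PE-treated muscle (Fdft1 is left out, since 10 of its 24 values lie at or under 3 counts), with filled red points for an adjusted p under 0.05. The filled points are Srebf2 in PE-treated against uninjured B6 muscle (1.13) and Sqle in PE-treated against uninjured MRL muscle (1.39).

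Between strains under PE, 0 of 8 members were called, against 3.35% of all genes. Here 5 of 8 (Hmgcs1, Sqle, Fdps, Lss and Insig1) were higher in MRL muscle at an unadjusted p under 0.05, against 9.57% of genes, and 3 of 8 (Hmgcs1, Fdps and Insig1) did not overlap, against 9.89%. Srebf2 was at 0.48 lower in MRL muscle, a difference that did not pass (adjusted p = 0.364). These counts rested on MRL PE replicate 2: without it 3 members were called, Lss (2.06, adjusted p = 0.0175) and Insig1 (2.81, adjusted p = 0.00538) higher in MRL muscle, and Srebf2 lower (-0.80, adjusted p = 0.0337). Over 14 alternatives the adjusted p of Insig1 ranged from 4.29e-06 to 0.444. In the mean over 4 treatments 0 members were called between strains, against 15.2%, and 2 (Lss higher and Srebf2 lower in MRL muscle) had an unadjusted p under 0.05, against 31.6%. Both were called without MRL PE replicate 2 (Lss 0.78, adjusted p = 0.0386, Srebf2 -0.37, adjusted p = 0.0261), Lss without B6 uninjured replicate 2 (0.82, adjusted p = 0.0457), and Srebf2 without B6 saline replicate 2 (-0.38, adjusted p = 0.0332).

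No member passed in the comparisons without PE. Between MRL and B6 muscle, 0 of 8 were called uninjured, with saline or with ECM, against 2.6%, 2.51% and 2.66% of all genes, and 0 of 8 had an unadjusted p under 0.05, against 10.9%, 13.3% and 13.4%. Between saline and uninjured B6 muscle 0 of 8 were called, as were 0% of genes, and only Insig1 had an unadjusted p under 0.05, against 12.4%. With the strains averaged, Insig1 was 1.16 lower with saline than uninjured (SE 0.48, adjusted p = 0.406), again the sole member at an unadjusted p under 0.05, with 0% of genes called and 11.2% at that level. In MRL muscle 0 of 8 were called between saline and uninjured, as were 0% of genes, and 0 of 8 had an unadjusted p under 0.05, against 3.1%.

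ECM moved no member past the test. Against uninjured muscle 0 of 8 were called in B6 and in MRL, against 0.424% and 0.0141% of genes, and 0 of 8 had an unadjusted p under 0.05, against 16.8% and 3.8%. Against saline 0 of 8 were called in B6, in MRL and in their mean, with shares of 0.0283%, 0.00706% and 0.0283% of genes called. None had an unadjusted p under 0.05 there, against 3.99%, 3.55% and 5.49%. The strain differences in the response to injury with saline and to ECM over saline had 0 of 8 called and 0% of genes, with 0 of 8 at an unadjusted p under 0.05, against 4.03% and 2.26%.

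The 15 other sterol synthesis genes listed, like the members, were called mainly in the comparisons with PE. Between PE and uninjured B6 muscle 4 of 15 were called, near the 24.8% of all genes called, of which 3 were higher, among them Msmo1 (1.32, adjusted p = 0.0217), a sterol demethylase, and Ebp, a sterol isomerase. Pmvk, a mevalonate pathway kinase, fell by 1.35 (adjusted p = 0.0445). Those 4 calls came down to 0 without B6 uninjured replicate 1 or 3 or B6 PE replicate 2, and to 1 without B6 PE replicate 1. In the same comparison in MRL muscle 4 of 15 were called, all higher, against 9.73% of all genes: Msmo1 (1.41), Cyp51 (1.25), which demethylates lanosterol, Dhcr7 (1.00), a late reductase, and Ebp. All 4 calls were lost without MRL uninjured replicate 1 or 3 or MRL PE replicate 2. With the strains averaged, 5 of 15 were higher with PE than with saline, against 24.2% of all genes called in either direction. They were led by Msmo1 (1.82, adjusted p = 0.00335) and Cyp51 (1.12, adjusted p = 0.00515), and 4 or 5 were called with any 1 library left out. Between strains under PE, other enzymes were higher in MRL muscle, 3 of 15, against 3.35% of all genes called in either direction. Among them were Nsdhl (1.93, adjusted p = 0.0379) and Mvk (1.02, adjusted p = 0.0167), of which Nsdhl was lost with the replicate number as a block (adjusted p = 0.0577). Over 14 alternatives Nsdhl was called under 5, and Mvk under 9. The count was 7 without MRL PE replicate 2, 1 without MRL PE replicate 3, and 0 without MRL PE replicate 1 or B6 PE replicate 1 or 2. Between PE and saline in MRL muscle 0 of 15 were called, as were 0% of all genes. There 15 of 15 differences were above 0, against 54.3% of genes, and 10 were higher at an unadjusted p under 0.05, against 12.8%.

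Of 10 genes that regulate the pathway, 1 was called between PE and uninjured MRL muscle, near the 9.73% of all genes called, Erlin2, an endoplasmic reticulum protein of sterol-dependent protein degradation, which rose by 0.90 (adjusted p = 0.0487). No regulation gene was called there without MRL uninjured replicate 1, 2 or 3 or MRL PE replicate 2.

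Of 15 sterol uptake and transport genes measured, 7 were called between PE and uninjured B6 muscle, all higher, against 24.8% of all genes called, among them Lipa (3.97), which frees cholesterol in lysosomes, and Lrp1 (2.29), a lipoprotein receptor. In MRL muscle 3 of 15 were called, all higher, against 9.73% of all genes: Npc2 (2.05), which carries cholesterol out of lysosomes, Lrp1 (1.77) and Scarb1 (1.12), the receptor for high-density lipoprotein. Between PE and saline in MRL muscle 0 of 15 were called, as were 0% of all genes, and 7 were higher at an unadjusted p under 0.05, against 12.8%. Left out 1 at a time, single libraries gave 2 to 8 calls in B6 muscle, with 4 without uninjured replicate 1 or 3 and 2 without PE replicate 2. They gave 0 to 7 in MRL muscle, with 0 without uninjured replicate 1 or 3 or PE replicate 2, 7 without PE replicate 1 and 5 without PE replicate 3.

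Genes of sterol efflux and storage were also called with PE. Between PE and uninjured B6 muscle 6 of 10 were called, all higher, against 24.8% of all genes called, led by Soat1 (5.33), which makes cholesteryl ester, Abcg1 (3.86), an exporter, and Nceh1 (2.26), an ester hydrolase. In MRL muscle 3 of 10 were called, all higher, against 9.73% of all genes: Abcg1 (3.10), Apoe (2.30), an apolipoprotein, and Abca1 (1.52), an exporter. The count in B6 muscle was 2 without uninjured replicate 1 or PE replicate 2 and 3 without uninjured replicate 3, and that in MRL muscle was 0 without uninjured replicate 1 or 3 or PE replicate 2. Ch25h, which makes 25-hydroxycholesterol, was 4.60 lower in MRL than in B6 muscle with ECM (adjusted p = 0.00188). It was called under 12 of 13 alternatives, with differences from -5.35 to -2.66 and adjusted p from 4.26e-05 to 0.0641, and not in a fit of only the groups compared. Its ECM libraries were at 4.92, 1.16 and 1.85 log2 CPM in B6 and at -2.42, -2.57 and -0.89 log2 CPM in MRL muscle, 2 of them under the level of 3 counts. From uninjured to ECM-treated B6 muscle, Ch25h rose by 5.41 (adjusted p = 0.00438), where 0.424% of all genes were called. That rise was called under 13 of 13 alternatives. In the mean over 4 treatments the MRL to B6 difference of Ch25h was -2.01 (adjusted p = 0.00206), called under 30 of 30 alternatives, where 15.2% of all genes were called.

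**Figure D3:**
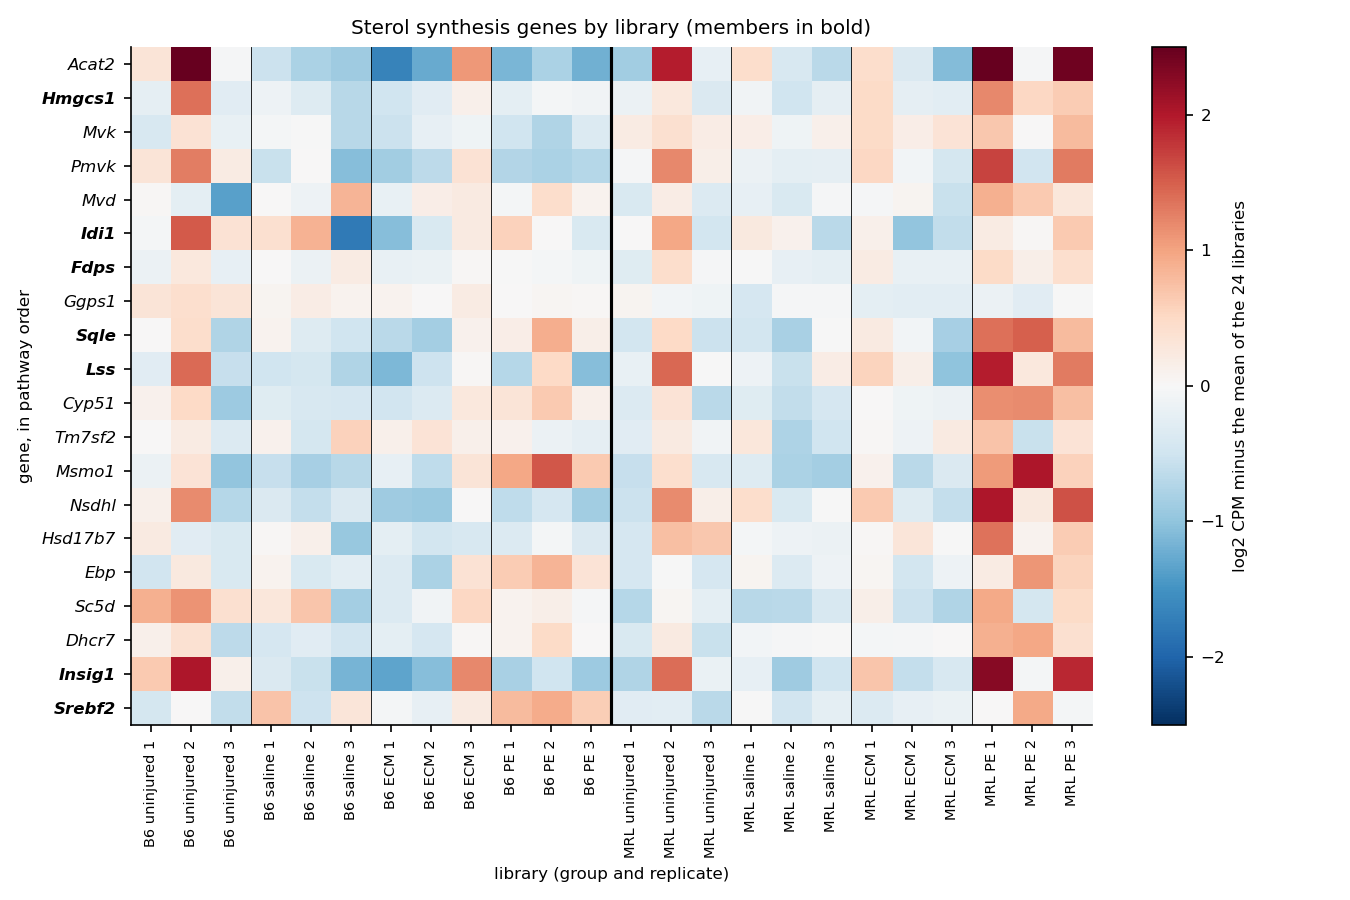
Log2 CPM minus the mean over the 24 libraries (colour scale) for 20 cholesterol synthesis genes (rows, members in bold, Fdft1 left out) in each library (columns, by group). Insig1 and Lss are high in MRL PE replicates 1 and 3 and in the replicate 2 libraries of both uninjured groups, while Srebf2 is high in the 3 B6 PE libraries, MRL PE replicate 2 and B6 saline replicate 1.

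Marker genes of other cell types moved with these results. Adipocyte markers (9 of 9 measured, none at or under 3 counts in any library) summed to 1282 to 5388 CPM in uninjured B6 muscle and to 290 to 505.5 CPM with PE. In PE-treated MRL muscle they ran from 569.9 to 6503 CPM. Macrophage markers (6 of 7 measured, without Adgre1, and none at or under 3 counts) summed to 125.4 to 169.5 CPM in uninjured B6 muscle and to 1425 to 5157 CPM with PE. They summed to 79.02 to 166.9 CPM in uninjured and to 216 to 4529 CPM in PE-treated MRL muscle. Between PE and uninjured B6 muscle 3 of 9 adipocyte markers were lower and 5 of 6 macrophage markers higher, against 24.8% of all genes called in either direction. In MRL muscle 0 of 9 adipocyte and 2 of 6 macrophage markers were called, the latter higher, against 9.73% of all genes. In that B6 comparison 4 of 4 neutrophil and 2 of 4 fibroblast markers were also higher, and 3 of 3 endothelial and 3 of 5 Schwann cell markers lower. Only 4 of the 6 neutrophil markers listed were measured, and of these S100a8 and S100a9 were at or under 3 counts in 2 and 5 libraries. Between PE and saline with the strains averaged, where Sqle and Srebf2 were called, 6 of 6 macrophage and 4 of 4 neutrophil markers were higher. There 2 of 7 muscle fibre markers were lower, near the 24.2% of all genes called in either direction, and 0 of 9 adipocyte markers were called. Their part in the results was not tested.

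Across the 24 libraries Insig1 ran with the mean of the adipocyte markers (r = 0.93) and not with that of the macrophage markers (r = -0.26). Srebf2 ran the other way, with r of -0.27 and 0.84. Lss (0.80), Hmgcs1 (0.74), Fdps (0.67) and Idi1 (0.61) were on the side of the adipocyte markers, Sqle was at 0.45 with both and at -0.74 with muscle fibre markers, and Fdft1 was on neither (0.05 and 0.22). Among the other synthesis genes Acat2 (0.94), Pmvk (0.92) and Nsdhl (0.86) followed the adipocyte markers, and Ebp (0.73) and Msmo1 (0.71) the macrophage markers. Without MRL PE replicate 2 the values were 0.94 for Insig1 with adipocyte and 0.80 for Srebf2 with macrophage markers. With group means taken off they were 0.95 and 0.63. The 2 marker means correlated with each other at -0.39. These are descriptions over libraries that share groups and normalisation, and Srebf2 was about as close to fibroblast markers (0.86) and opposite to muscle fibre markers (-0.77).

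**Figure D4:**
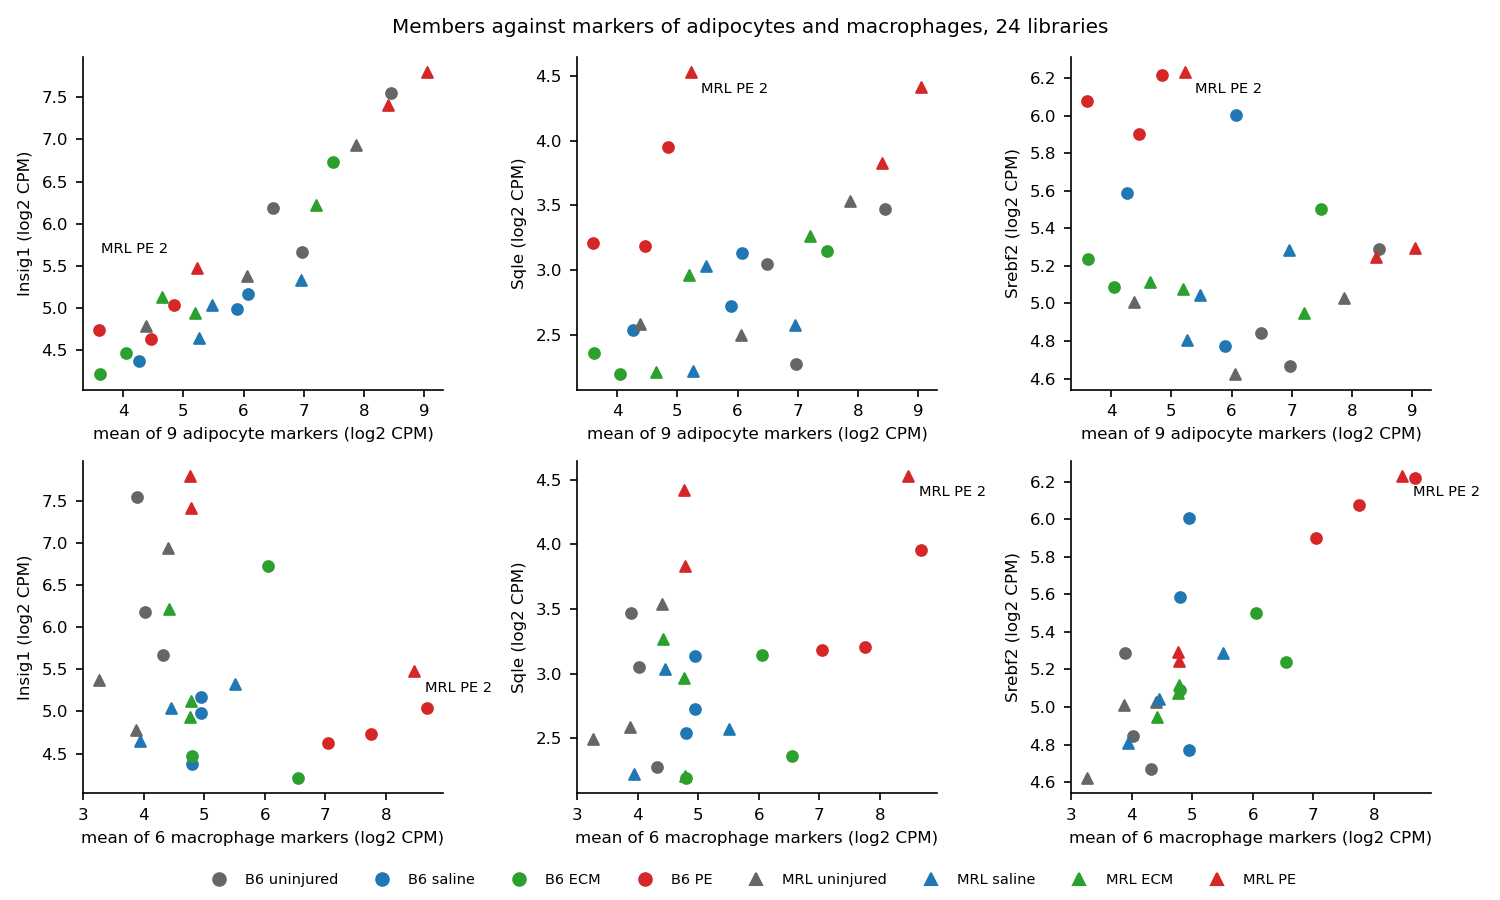
Log2 CPM of Insig1, Sqle and Srebf2 (y axes) against the mean log2 CPM of 9 adipocyte markers (top) and 6 macrophage markers (bottom) in 24 libraries, with circles for B6, triangles for MRL and MRL PE replicate 2 labelled. Insig1 rises with the adipocyte markers (r = 0.93) and Srebf2 with the macrophage markers (r = 0.84).

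Within groups, with group means taken off, pairs of members varied together to different degrees. Insig1 and Lss correlated at 0.82, Hmgcs1 and Lss at 0.80, Insig1 and Fdps at 0.79, Hmgcs1 and Insig1 at 0.77, and Sqle and Lss at 0.75. Idi1 correlated with these 5 genes at 0.36 (Sqle) to 0.65 (Hmgcs1). Srebf2 correlated with Insig1 at 0.01, with Lss at 0.07 and with Sqle at 0.49, and Fdft1 with the rest at -0.12 to 0.35. Of 11191 genes searched, those closest to the mean of the 8 members over the 24 libraries, group means taken off, were Acaa1a (0.84), a peroxisomal thiolase, Cpsf3 (0.84), Mettl9 (0.83), Tkt (0.83), a pentose phosphate enzyme, Prpsap2 (0.82), C2 (0.82), Cyp51 (0.81), Aco1 (0.81), Taldo1 (0.81) and Rab9 (0.81). With group means kept, Phka2 (0.88) and Mettl9 (0.88) were closest. Leaving out Fdft1, chosen after its values were seen, gave Aco1 (0.95), Sowahc (0.94), Idh1 (0.93), Hsd17b12 (0.92), Cebpa (0.92) and Por (0.92). A list of 13 fatty acid synthesis genes had 0 called between strains under PE, against 3.35% of all genes. There 13 of 13 were higher in MRL muscle, 10 of them at an unadjusted p under 0.05, against 9.57% of genes. The median difference was 2.45, against -0.02 over all genes. In PE-treated MRL muscle the list summed to 24420, 1884 and 20660 CPM in replicates 1, 2 and 3. Its mean correlated with Insig1 at 0.95 and with Lss at 0.90 over the 24 libraries.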

How the data were processed

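The deposited matrix holds log2 CPM, which the authors made by counting paired-end reads of the 24 libraries against the Ensembl GRCm39 transcripts with kallisto, summing to genes through an earlier Ensembl release, keeping genes above 1 CPM in at least 3 libraries, and scaling with edgeR by the trimmed mean of M-values, with the log2 values deposited after a prior count of 2 was added. Linear counts were not used here, so no count model was fitted. The mean effective library size read back from the lowest value was 25149682 reads, at which 3 counts are 0.119 CPM. Of 14160 rows, 1 without a symbol was left out.

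Groups were compared with limma 3.58.1 in R 4.3.3 on the log2 CPM of all 24 libraries (1 mean per group, variance trend, 2-sided, Benjamini-Hochberg adjustment over 14159 genes, called at an adjusted p under 0.05), in 20 planned comparisons and 3 added after the data had been seen. The fit was tested on simulated data. Members of a comparison of 2 groups are given with their statistics where called, or without overlap and with a log2 difference of at least 1, along with other values that describe a member. Other pathway genes are named, up to 3 a list, by the size of a called difference, and some are not reported here. Ebp and members named by an unadjusted p or by levels alone were named after their values were seen. The members and lists were chosen with earlier results of these data known. Near copies are annotated transcripts at 90% identity over 50% of the shorter, found with BLAST 2.17.0. Same-numbered libraries were taken as paired where every pair of deviations correlated across genes at r over 0.1, which held only between strains under PE (0.105, 0.532 and 0.439), where blocking on the number called 0 members, as without it. Alternatives covered scaling, filters, pseudocount, variance model, library weights, the replicate block and leaving out each library.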

Additional observations from a re-analysis of the deposited data

How the results depend on the processing

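The number of members called (of 8) moved most with library weights, whose fit did not reach its tolerance and gave weights from 0.057 (MRL PE replicate 2) to 56.261 (B6 PE replicate 1). With these weights it was 1 between strains with saline, 6 between strains under PE, 4 between strains over treatments, 1 for saline against uninjured in B6 muscle and in the mean of strains, 2 for PE against uninjured in B6 and 3 in MRL muscle, 1 for PE against saline in B6 and 5 in MRL muscle and in the mean, 1 for ECM against saline in B6 muscle, 3 and 5 for ECM against PE in B6 and MRL muscle, 1 and 6 for the strain differences in the response to saline injury and to PE over saline, and 8 for any difference. Fitting only the groups compared gave 2 for PE against uninjured in B6 muscle, 0 in MRL muscle and 1 for PE against saline in the mean. Scaling libraries to equal totals gave 3 for PE against uninjured and 1 for ECM against PE in MRL muscle and 4 for PE against saline in the mean. With this scaling the median log2 difference of all genes ran from -0.42 to 0.47 over the comparisons, against -0.08 to 0.07 without it. Quantile normalization gave 0 for PE against uninjured in MRL muscle (Sqle adjusted p = 0.0657), as did a fit without the variance trend (0.0528), and their cause was not tested. Leaving out single libraries moved the counts over ranges of 0 to 3 between strains under PE, 0 to 2 between strains over treatments, 0 to 1 for PE against uninjured in B6 and 0 to 2 in MRL muscle, 0 to 1 for PE against saline in MRL muscle and 1 to 3 in the mean, 0 to 2 for ECM against PE in MRL muscle and 0 to 3 for any difference. They were 0 throughout in the other comparisons. No difference changed its sign past the threshold.

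The labels give all groups the replicate numbers 1 to 3, but in 15 of 16 comparisons of 2 groups at least 1 pair of same-numbered libraries correlated at r of 0.1 or less in its deviations. PE against uninjured in B6 muscle came closest (0.087, 0.247 and 0.118), and Srebf2 was called there with the replicate block too (adjusted p = 0.0152). With the replicate block, 0 members were called for PE against uninjured in MRL muscle (Sqle adjusted p = 0.0504), and in the other comparisons the number of members called did not change. With 3 libraries a group, no exact permutation test of 2 groups can go below p = 0.1. Genes near the floor of the matrix, as Fdft1 and Ch25h were in some libraries, are limited by depth.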
